A study of Mus musculus with 7 samples.

Results

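The cytochrome P450 genes of the mouse were compared between medullary thymic epithelial cells (mTECs) with and without Cre on a floxed Ikzf1 background. A gene was a member when the deposited table listed it as protein_coding and its symbol was Cyp followed by a digit, which took 101 of the table's 55536 genes and 101 of its 21963 protein_coding genes. EPCAM+ mTECs of mouse thymus had been lysed in SMART-seq buffer and sequenced as bulk RNA. Of the 7 libraries, 4 were labelled Cre(-) Ikzf1fl/fl Pou2f3-/- and 3 were labelled Cre(+) Ikzf1fl/fl Pou2f3-/-. Every library thus came from mice with the floxed Ikzf1 alleles and without Pou2f3, the transcription factor that tuft cells need, and the study asked what Ikaros, the product of Ikzf1, does to expression in mTECs without tuft cells. The sources used here do not give the Cre driver, the floxed exon, the age of the mice or any pooling. Libraries carry the numbers of their titles, 46, 48, 75 and 77 for the Cre-negative and 45, 76 and 80 for the Cre-positive ones, and values below follow that order. Nothing in the labels ties a library to an animal of its own. The p-values set the difference between the groups against the spread of these samples, and that spread may be technical.

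Cytochrome P450 enzymes are haem proteins that insert oxygen into small lipophilic molecules. Some members have a single endogenous task, such as making steroid hormones or bile acids or breaking down retinoic acid, whereas the large families that clear drugs and toxins are mostly genes of the liver, gut, kidney, lung and nose. mTECs transcribe very many genes of such peripheral tissues, each in a small fraction of cells, to show the products to developing T cells, and the nuclear protein Aire drives part of that display.

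The libraries held 9815958 to 12599078 reads recovered from the deposited normalized counts. Ikzf1 stood at 1119 to 1219 normalized counts in the Cre-negative and 1310.3 to 1829 in the Cre-positive libraries (log2 fold change 0.46, adjusted p = 0.0916), and a count over the whole gene does not show whether a floxed exon was lost, so it checks no label. Pou2f3 stood at 1.8 to 27.9 and 0 to 17.8, and a count over the whole gene has the same limit there. Aire fell (3694 to 5436 without Cre and 2689.8 to 3298 with Cre, log2 fold change -0.56, adjusted p = 0.0395, with an adjusted p up to 0.134 when library 45, 75, 76 or 77 was left out and 0.0509 with a covariate for Y-linked genes). Cd80, a surface protein of mature mTECs, fell (942 to 1484 without Cre and 254 to 369 with Cre, log2 fold change -1.87, adjusted p = 2.51e-04). The keratin gene Krt14 rose (1162 to 2269 without Cre and 3897 to 5880.5 with Cre, log2 fold change 1.51, adjusted p = 0.00132). The mTEC marker list as a whole had 2 of 6 genes higher and 2 lower, and the cortical epithelium list 1 of 5 higher and 1 lower. Of the lists of other cell types, the fibroblast list had 3 of 5 tested genes lower (summed counts 437 to 770.3 against 134 to 369) and the hepatocyte list 2 of 7. The macrophage and dendritic list had 1 of 8 higher and 2 lower (5370.3 to 6979 against 7313 to 11517). The thymocyte, B cell, endothelial, erythroid, enterocyte and tuft lists had 0 called, and no marker stood at 0 in every library of a group. Cre-negative 48 alone held more than 1 normalized count of Y-linked genes, and fewer genes had a read in the libraries numbered 45 to 48 (25878 to 29361) than in those numbered 75 to 80 (31682 to 36154). For named genes only, calls that a covariate for the Y-linked genes or a term for the title number range ended or added are therefore given beside the gene.

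Of the 101 P450 genes, 67 had a mean of at least 5 normalized counts and were tested. With limma, 16 were called at an adjusted p under 0.05 (23.9% of those tested, where 13.8% of all 22878 genes tested were called). The 5 higher members were Cyp2a12, Cyp2g1, Cyp26a1, Cyp1b1 and Cyp7b1 (7.46%, against 4.66% of all genes tested). The 11 lower members were Cyp2c29, Cyp4a12b, Cyp2b10, Cyp3a16, Cyp2d12, Cyp2j13, Cyp1a2, Cyp4f14, Cyp4f18, Cyp26b1 and Cyp11a1 (16.4%, against 9.11%). The Cre-positive libraries did not overlap the Cre-negative libraries in any of the 16. The direction therefore had to be the same within the libraries numbered 45 to 48 and within those numbered 75 to 80. Of the 16, 8 stayed called with any 1 library left out, and 7 of these (Cyp26a1, Cyp1b1, Cyp2g1, Cyp2c29, Cyp2j13, Cyp1a2 and Cyp11a1) in every alternative run. The groups did not overlap in 22 tested members (32.8%, against 25.3% of all genes tested), 8 of them higher (10.8% of all genes) and 14 lower (14.5%) in the Cre-positive libraries. edgeR on the recovered reads also called 5 members higher and 11 lower, where it called 11.2% of all genes tested, 4.28% higher and 6.87% lower.

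The fold change is the Cre-positive minus the Cre-negative mean of log2(normalized count + 1), which understates the change of genes near 0. Its median over the 67 tested members was -1.22, where the median over all genes tested was -0.10. With scaling to library totals the medians were -1.35 and -0.29, and no called member changed direction. Of the 51 tested members without a call, 37 had a fold change below 0 and 14 above 0. Most members were read thinly. Of the 47 tested members with a mean under 50 normalized counts, 9 were called and all 9 were lower, where 9.11% of all genes tested at such means were called, 8.41% lower and 0.706% higher. A member that passed the mean of 5 through its Cre-negative libraries alone had to come out lower, so these counts describe the members and support no direction.

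**Figure D1:**
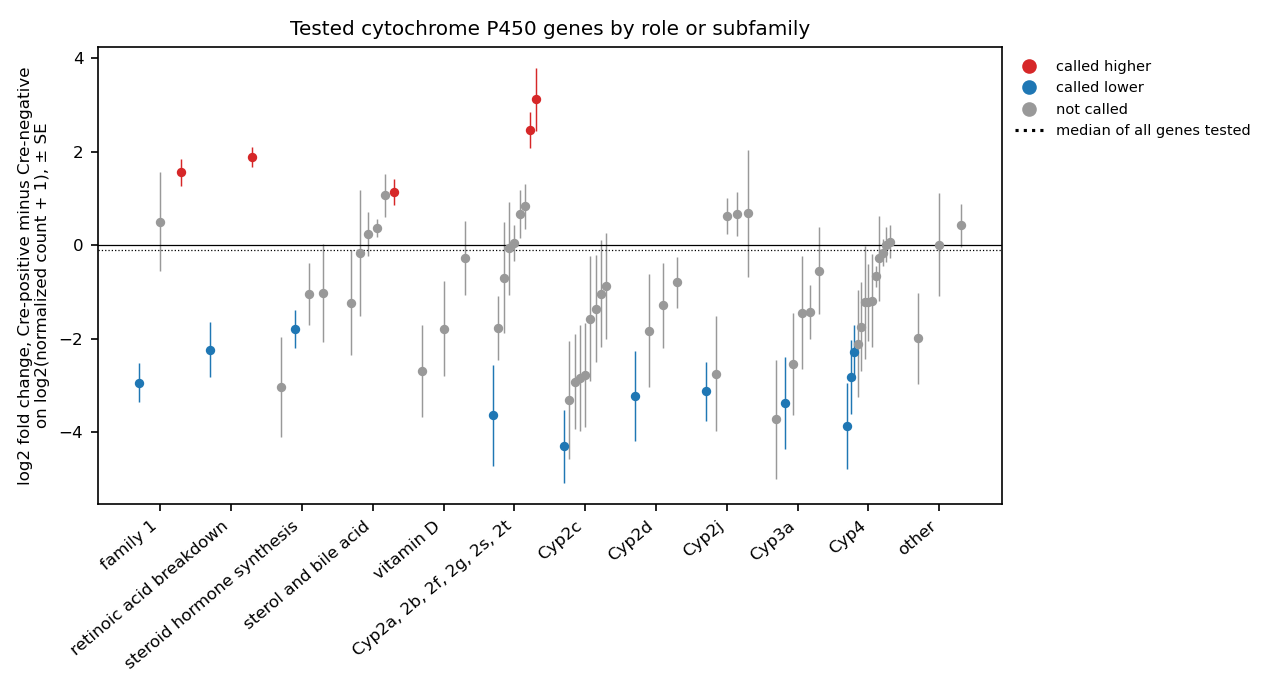
Log2 fold change (Cre-positive minus Cre-negative, vertical axis, on log2(normalized count + 1)) of the 67 tested P450 genes with its standard error, grouped along the horizontal axis by role or subfamily. Red and blue points are the 5 higher and 11 lower calls, and the dotted line is the median of all genes tested (-0.10), below which all 9 Cyp2c and all 6 Cyp3a points lie.

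Read per length and ranked by group mean, the order of the most abundant members differed between the groups. The scale here is recovered reads scaled to exon length and library total (RPKM). Cyp2a5, a coumarin hydroxylase of liver and nose, ranked 1 in the Cre-negative libraries (23.3 to 173) and Cyp26a1 ranked 2 (31.1 to 54.6), with overlapping ranges. In the Cre-positive libraries Cyp26a1 ranked 1 (108 to 157) and Cyp2a5 ranked 2 (87.2 to 89.2), and these ranges did not overlap. Cyp1a2 went from rank 3 (14 to 18.5) to rank 18 (0.78 to 2.99), and Cyp2g1 from rank 7 (4.76 to 18.9) to rank 3 (39.3 to 43.9). Cyp2f2, Cyp51 and Cyp4f16 held ranks 4 to 6 in the Cre-negative libraries, and of these only the range of Cyp2f2 overlapped that of Cyp1a2. Summed over all 101 members, the libraries held 7019.8, 9554, 5290.0 and 6152 normalized counts without Cre and 9708, 10464 and 10293 with Cre. The Cre-positive sums were all above the Cre-negative ones, while the number of members with at least 10 reads was 56, 57, 59 and 57 without Cre and 31, 35 and 32 with it. Over all genes this number was also lower in every Cre-positive library (17169 to 18014 against 19417 to 20467).

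The retinoic acid hydroxylases of family 26 went in opposite directions. Retinoic acid is made from vitamin A by retinaldehyde dehydrogenases and acts through nuclear receptors, and the Cyp26 enzymes clear it. Cyp26a1 (chr19:37697808-37701528 as the deposited table gives it, GRCm38) held 882, 597, 742 and 1098 normalized counts in the Cre-negative libraries and 2548, 3556 and 2947 in the Cre-positive libraries. The lowest Cre-positive library stood above the highest Cre-negative one by more than the whole Cre-negative range. The group means were 829.9 ± 213 (SD, n = 4) and 3017 ± 508 (SD, n = 3), and the gene rose (log2 fold change 1.88 ± 0.21 (SE), adjusted p = 1.85e-04). Cyp26b1 (chr6:84571414-84593908) held 88.8, 43.3, 72.1 and 57.9 normalized counts in the Cre-negative libraries and 27.2, 7.0 and 10.4 in the Cre-positive libraries. All Cre-positive libraries lay below all Cre-negative ones, and the gene fell (log2 fold change -2.23 ± 0.58 (SE), adjusted p = 0.0240). That call was lost without library 46, 75, 76, 77 or 80 (adjusted p from 0.0546 to 0.0835) and with limma-voom (adjusted p = 0.0502). Cyp26c1, the neighbour of Cyp26a1, stayed below the filter with 0 to 10.8 and 1.0 to 7.3.

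The promoters of both called genes are shown because a paired retinoic acid receptor site upstream of Cyp26a1 is a textbook case of a gene induced by its own substrate. The sequences are the 250 bases before the gene start from RefSeq (GRCm38.p6), written 5′ to 3′ along the gene. Capitals mark a direct repeat of AGTTCA with a spacer of any 5 bases, searched on both strands, which retinoic acid receptors bind. Cyp26a1 lies on the plus strand (chr19:37697558-37697807) and Cyp26b1 on the minus strand (chr6:84593811-84594060). The deposited table starts Cyp26b1 further upstream than RefSeq, so the part of this window nearest the gene lies inside the gene as deposited.
Cyp26a1: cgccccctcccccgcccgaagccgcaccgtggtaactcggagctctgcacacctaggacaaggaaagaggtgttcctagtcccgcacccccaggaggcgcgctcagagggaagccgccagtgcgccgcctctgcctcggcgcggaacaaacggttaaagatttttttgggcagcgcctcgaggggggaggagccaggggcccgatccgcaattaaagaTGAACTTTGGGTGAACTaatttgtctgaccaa
Cyp26b1: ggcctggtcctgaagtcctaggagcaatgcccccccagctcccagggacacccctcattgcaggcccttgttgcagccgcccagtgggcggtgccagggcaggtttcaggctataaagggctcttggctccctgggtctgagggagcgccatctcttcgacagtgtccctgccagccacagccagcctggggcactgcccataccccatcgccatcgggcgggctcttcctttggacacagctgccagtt
The Cyp26a1 match starts at position -32 from the gene start and reads in the opposite orientation. This repeat was in 7 of 32851 promoters searched (0.0213%), and Cyp26a1 was the 1 member among the 77 with a promoter sequence. The Cyp26b1 window holds no match to these letters. Only this spelling of the repeat, the one that Cyp26a1 holds, was searched. The counts therefore describe these letters and do not show that Cyp26b1 or other members lack a receptor site.

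Other genes of the retinoid pathway were lower in part. Of 18 listed genes 17 were tested, 6 fell and 0 rose, where 9.11% of all genes tested fell and 4.66% rose. The median fold change was -0.64 against -0.10 for all genes. Lrat, which esterifies retinol for storage, held 448, 161, 193 and 213 normalized counts in the Cre-negative libraries and 0, 13.0 and 8.3 in the Cre-positive libraries (log2 fold change -5.53 ± 0.79 (SE), adjusted p = 7.74e-04). Aldh1a1 and Aldh1a2, which make retinoic acid, both fell. Aldh1a1 stood at 59.5 to 126 without Cre and 11.0 to 17.8 with Cre (log2 fold change -2.80, adjusted p = 0.00240), and Aldh1a2 at 45 to 134 without Cre and 0 to 13.0 with Cre (log2 fold change -4.32, adjusted p = 0.00507). Bco1, which cleaves beta-carotene, fell (30.0 to 116 without Cre and 0 to 10.4 with Cre, log2 fold change -4.02, adjusted p = 0.00830). The groups did not overlap in these 4 genes, and each stayed called with any 1 library left out. Aldh1a3, of the same family as Aldh1a1 and Aldh1a2, held more counts than either and was not called (568 to 1014 without Cre and 700 to 919 with Cre, log2 fold change 0.22, adjusted p = 0.560). The other 2 that fell, named after their values were seen, were the retinol receptor Stra6 (log2 fold change -1.26, adjusted p = 0.0159, at most 0.0523 without library 77 or 80) and the retinoic acid carrier Crabp1 (log2 fold change -1.35, adjusted p = 0.0165, 0.0667 without Cre-positive 45). The fibroblast collagen genes Col3a1 (49.5 to 156 without Cre and 1.0 to 13.0 with Cre, log2 fold change -3.94, adjusted p = 0.00350) and Col1a2 (94.7 to 123 without Cre and 7.3 to 38.1 with Cre, log2 fold change -2.53, adjusted p = 0.00787) fell beside these genes. Col1a1 of the same list also fell (log2 fold change -2.63, adjusted p = 0.0330, up to 0.0972 without library 45, 46, 48, 77 or 80 and 0.127 with the Y-linked covariate). Pdgfra and Pdgfrb of that list were not called (log2 fold change -0.45 and -0.27, adjusted p = 0.762 and 0.638). The part of fibroblasts in the values of the retinoid genes was not tested. In bulk RNA, fewer cells of a type and less RNA per cell cannot be told apart.

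**Figure D2:**
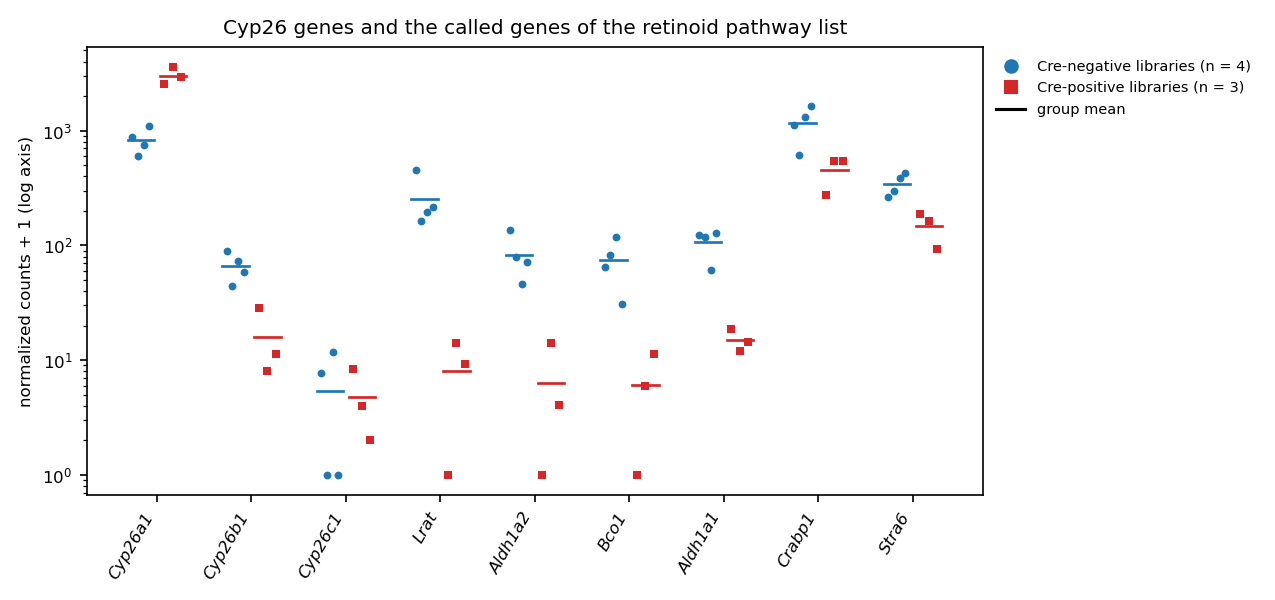
Normalized counts + 1 (log axis) of the 3 Cyp26 genes and the 6 called genes of the retinoid pathway list in each library, with circles for the 4 Cre-negative and squares for the 3 Cre-positive libraries and a line at the group mean. Cyp26a1 is higher in every Cre-positive library, Cyp26b1 and the 6 pathway genes are lower in every one, and Cyp26c1 overlaps.

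Family 1, whose genes answer to the aryl hydrocarbon receptor, also split. Cyp1b1 (chr17:79706953-79715041), an enzyme of oestrogens and aromatic hydrocarbons found mainly outside the liver, held 142.5, 121, 104.5 and 109 normalized counts in the Cre-negative libraries and 531, 285 and 282 in the Cre-positive libraries. All Cre-positive libraries lay above the Cre-negative ones, Cre-positive 45 highest, and the gene rose (log2 fold change 1.56 ± 0.30 (SE), adjusted p = 0.00451). Cyp1a2 (chr9:57676937-57683703), the caffeine-clearing enzyme of the liver, held 350.3, 360.5, 312 and 286 normalized counts in the Cre-negative libraries and 54.3, 18.0 and 72.7 in the Cre-positive libraries. The Cre-negative libraries were close together, every Cre-positive library was far below them, and the gene fell (log2 fold change -2.94 ± 0.42 (SE), adjusted p = 7.62e-04). Cyp1a1, which lies beside Cyp1a2, held 22.6, 2.0, 0.9 and 13.4 normalized counts in the Cre-negative libraries and 14.6, 12.0 and 3.1 in the Cre-positive libraries, and its groups overlapped (log2 fold change 0.50 ± 1.05 (SE), adjusted p = 0.802). Of the receptor genes of this system, Ahr and Ahrr were not called. The receptor's partner Arnt fell (log2 fold change -0.88, adjusted p = 0.0497) and its target Tiparp rose (log2 fold change 0.79, adjusted p = 0.0453), but each of these calls was lost in 6 of the 7 fits that left out 1 library (adjusted p up to 0.157 and 0.121), and that of Arnt also with the Y-linked covariate (0.165).

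The promoters of the called family 1 genes are shown for the core of the xenobiotic response element, GCGTG, and the core that Ikaros binds, TGGGAA, with capitals where either occurs on either strand. Both windows are the 250 bases before the RefSeq gene start on GRCm38.p6 and lie on the minus strand, Cyp1b1 at chr17:79715062-79715311 and Cyp1a2 at chr9:57683656-57683905. The part of the Cyp1a2 window nearest the gene lies inside the gene as deposited, which starts further upstream than in RefSeq.
Cyp1b1: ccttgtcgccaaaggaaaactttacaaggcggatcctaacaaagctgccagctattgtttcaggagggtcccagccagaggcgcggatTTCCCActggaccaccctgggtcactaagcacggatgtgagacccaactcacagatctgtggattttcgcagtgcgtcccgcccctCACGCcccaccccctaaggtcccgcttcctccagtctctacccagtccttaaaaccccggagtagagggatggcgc
Cyp1a2: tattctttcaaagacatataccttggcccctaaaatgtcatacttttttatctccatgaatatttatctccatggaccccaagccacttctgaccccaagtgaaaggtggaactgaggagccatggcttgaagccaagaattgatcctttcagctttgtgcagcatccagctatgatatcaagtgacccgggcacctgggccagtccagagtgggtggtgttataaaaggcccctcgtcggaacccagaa
In Cyp1b1 the Ikaros core starts at position -162 and the xenobiotic core at position -76, both read from the other strand, and the 2 matches do not overlap. Cyp1a2 has neither set of letters in this window. GCGTG was in 28.2% of all 32851 promoters and in 16 of 77 members (20.8%), and TGGGAA in 21.6% and in 21 of 77 (27.3%). Among the 12 called members with a sequence, Cyp1b1, Cyp2b10, Cyp2j13 and Cyp4f14 held GCGTG, and Cyp11a1, Cyp1b1, Cyp2j13, Cyp3a16 and Cyp4f14 held TGGGAA. Letters this common are a description of the windows and mark no site.

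The gene cluster of chromosome 7 (chr7:25802475-27158668) holds 13 members, 9 of them tested, from Cyp2s1 to Cyp2t4. Within it Cyp2g1 and Cyp2a12 rose, Cyp2b10 fell and 6 tested members had no call. Cyp2g1 (chr7:26808892-26821205), an enzyme of the olfactory mucosa, held 253, 392, 108 and 113 normalized counts in the Cre-negative libraries and 1121, 962 and 1018 in the Cre-positive libraries. The Cre-positive libraries were tightly grouped above the Cre-negative ones, which ran over a wider range (log2 fold change 2.46 ± 0.39 (SE), adjusted p = 0.00142). Cyp2a12 (chr7:27029081-27037375), a liver steroid hydroxylase, held 31.8, 5.9, 7.2 and 18.6 normalized counts in the Cre-negative libraries and 135, 208 and 60.2 in the Cre-positive libraries. All Cre-positive libraries were higher (log2 fold change 3.12 ± 0.67 (SE), adjusted p = 0.00887), and the call was lost without library 76 (adjusted p = 0.0511). Cyp2b10 (chr7:25897620-25926624), a liver gene induced by the receptor Nr1i3, held 8.4, 40.4, 2.7 and 41.4 normalized counts in the Cre-negative libraries and 0, 1.0 and 0 in the Cre-positive libraries. Every Cre-negative library was above the 3 Cre-positive ones, of which 2 had no read (log2 fold change -3.64 ± 1.07 (SE), adjusted p = 0.0393). The Cyp2b10 call was lost without library 45, 46, 48, 76, 77 or 80 (adjusted p from 0.0606 to 0.109) and with the Y-linked covariate (log2 fold change -3.01, adjusted p = 0.139). It was also lost with an added count of 5 (adjusted p = 0.0622), with no filter (0.0642) and with limma-voom (0.166).

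Cyp2a5 and Cyp2f2, the latter known from club cells of the lung, lie on either side of Cyp2a12 and turned on 1 library. Cyp2a5 held 1641, 3473, 511 and 735 normalized counts in the Cre-negative libraries and 2158, 2111 and 2179.9 in the Cre-positive libraries (log2 fold change 0.83 ± 0.48 (SE), adjusted p = 0.282). Cyp2f2 held 236, 782, 118 and 127 normalized counts in the Cre-negative libraries and 344, 336.5 and 417 in the Cre-positive libraries (log2 fold change 0.66 ± 0.51 (SE), adjusted p = 0.434). In both genes Cre-negative 48 was above every Cre-positive library and the other Cre-negative libraries were below every one of them. Without Cre-negative 48 the fold change was 1.34 (adjusted p = 0.0316) for Cyp2a5 and 1.25 (adjusted p = 0.0294) for Cyp2f2. With a covariate for Y-linked genes, which that library alone carried, the values were 1.5 (adjusted p = 0.0272) and 1.44 (adjusted p = 0.0205). Within the libraries numbered 45 to 48 the fold changes were -0.15 and -0.32, and within those numbered 75 to 80 they were 1.81 and 1.61. Cyp2b19 at 51.7 to 69.4 and 48.8 to 74.2 had a fold change of 0.05, and Cyp2s1 at 18.7 to 81.1 and 5.2 to 23.0 one of -1.78 (adjusted p = 0.107). Over the 9 tested genes the fold change ran from -3.64 to 3.12.

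**Figure D3:**
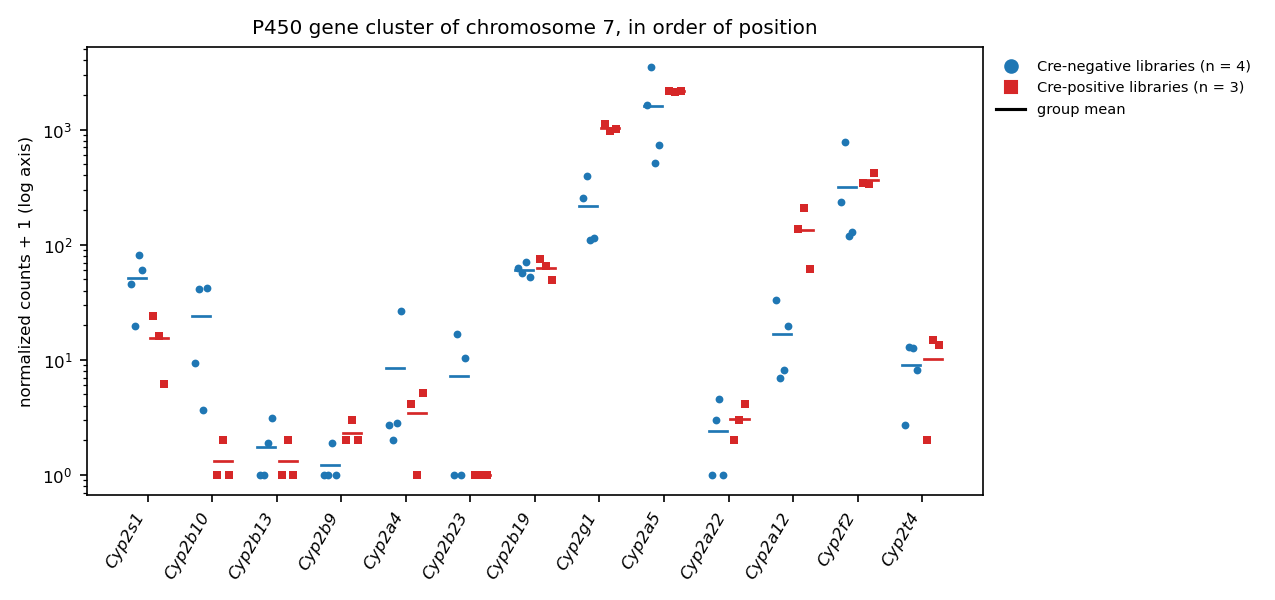
Normalized counts + 1 (log axis) of the 13 P450 genes of the chromosome 7 cluster in their order along the chromosome, with circles for the 4 Cre-negative and squares for the 3 Cre-positive libraries and a line at the group mean. Cyp2g1 and Cyp2a12 are higher and Cyp2b10 is lower in every Cre-positive library, and Cre-negative 48 is the top circle of Cyp2a5 (3473) and Cyp2f2 (782).

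Among the sterol and bile acid enzymes, 1 of 6 tested members rose and 0 fell. Cyp7b1 (chr3:18071950-18243338), an oxysterol hydroxylase, held 160.1, 236, 140.5 and 188 normalized counts in the Cre-negative libraries and 288, 523 and 407 in the Cre-positive libraries. The Cre-positive libraries were all higher (log2 fold change 1.14 ± 0.28 (SE), adjusted p = 0.0179), and the call was lost without library 46 or 76 (adjusted p from 0.0512 to 0.0808) and with scaling to library totals (adjusted p = 0.0518). Cyp27a1, the sterol hydroxylase of mitochondria, held 34.4, 124, 122.5 and 79.6 normalized counts in the Cre-negative libraries and 140.0, 133 and 263 in the Cre-positive libraries, with no overlap and no call (log2 fold change 1.07 ± 0.46 (SE), adjusted p = 0.147). Cyp51, the lanosterol demethylase of cholesterol synthesis, held 562, 588, 509 and 610.0 normalized counts in the Cre-negative libraries and 746, 616 and 839 in the Cre-positive libraries. Its Cre-positive values were all higher, but by a small margin (log2 fold change 0.36 ± 0.19 (SE), adjusted p = 0.233). None of the 21 other cholesterol synthesis genes listed was called with limma, and their median fold change was 0.03. Cyp7a1, the rate-limiting enzyme of bile acid synthesis, stood at 1.0 to 13.4 and 0 to 9.0 (log2 fold change -1.23, adjusted p = 0.516).

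Of the vitamin D enzymes, 0 of 3 were called. Cyp27b1, which activates vitamin D, held 25.1, 8.9, 24.3 and 22.7 normalized counts in the Cre-negative libraries and 13.6, 1.0 and 0 in the Cre-positive libraries, with Cre-positive 45 inside the Cre-negative range (log2 fold change -2.69 ± 0.99 (SE), adjusted p = 0.0923). Without Cre-positive 45 the fold change was -3.81 (adjusted p = 0.0254). Cyp24a1, which inactivates vitamin D, held 21.8, 100.5, 25.2 and 25.8 normalized counts in the Cre-negative libraries and 10.4, 20 and 105 in the Cre-positive libraries. Cre-negative 48 and Cre-positive 80 were far above the other libraries of their groups, and the fold change (log2 fold change -0.28 ± 0.79 (SE), adjusted p = 0.857) took the other sign in 5 of the alternatives run. Cyp2r1, which makes the circulating form of the vitamin in the liver, stood at 13.4 to 24.3 and 0 to 27.0 (log2 fold change -1.79, adjusted p = 0.274).

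Among the steroid hormone enzymes 1 of 4 tested members fell and 0 rose. Cyp11a1 (chr9:58006411-58027023), which cuts the side chain of cholesterol at the start of steroid synthesis, held 225, 118, 217 and 163 normalized counts in the Cre-negative libraries and 73.1, 28.0 and 61.2 in the Cre-positive libraries. All Cre-positive libraries were below all Cre-negative ones (log2 fold change -1.79 ± 0.40 (SE), adjusted p = 0.0118). Cyp19a1, the aromatase that makes oestrogens, held 8.4, 11.8, 91.0 and 73.4 normalized counts in the Cre-negative libraries and 0, 11.0 and 3.1 in the Cre-positive libraries. The Cre-negative libraries 75 and 77 were far above 46 and 48, and the groups overlapped (log2 fold change -3.04 ± 1.07 (SE), adjusted p = 0.0796). With a term for the range of the title number its fold change was -3.52 (adjusted p = 0.00982). Cyp17a1, needed for androgens, stood at 29.5 to 66.2 and 6.3 to 34.3 (log2 fold change -1.05, adjusted p = 0.325), and Cyp11b1, the last step to corticosterone, at 3.6 to 52.0 and 1.0 to 14.6 (log2 fold change -1.01, adjusted p = 0.573). Summed over the 6 members of this group, counts were 175 to 352 without Cre and 76 to 103 with Cre, without overlap.

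The listed partners of these enzymes had 6 of 15 tested genes lower and 0 higher, with a median fold change of -1.35. Over all genes tested 9.11% were called lower, and the median was -0.10. A gene that passed the filter through its Cre-negative libraries alone had to come out lower, so this count supports no direction. Akr1c18, which inactivates progesterone, held 429, 253, 494 and 591 normalized counts in the Cre-negative libraries and 12.5, 55.1 and 64.4 in the Cre-positive libraries (log2 fold change -3.53 ± 0.50 (SE), adjusted p = 7.62e-04). Hsd3b6 and Hsd3b1, steroid dehydrogenases, both fell. Hsd3b6 stood at 11.7 to 45 without Cre and 0 to 1.0 with Cre (log2 fold change -4.35, adjusted p = 0.00556), and Hsd3b1 at 15.8 to 47.7 without Cre and 0 to 3.0 with Cre (log2 fold change -3.60, adjusted p = 0.0130). Hsd17b3, the testis enzyme that makes testosterone, fell (30.6 to 68.2 without Cre and 0 to 4.2 with Cre, log2 fold change -3.81, adjusted p = 0.00795). In each of these 4 genes every Cre-positive library was below every Cre-negative one, and each stayed called with any 1 library left out.

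The remaining calls came from the families of drug, fatty acid and eicosanoid metabolism, which are mostly liver, gut and kidney genes. All of these remaining calls were lower, whereas the liver gene Cyp2a12, given above, rose. Cyp2c29, Cyp3a16, Cyp2d12 and Cyp4a12b passed the filter through their Cre-negative libraries alone and could only come out lower, so the shared direction supports no conclusion. Cyp2c29 (chr19:39269405-39330713), a liver epoxygenase, held 52.8, 60.1, 22.5 and 54.8 normalized counts in the Cre-negative libraries and 0, 3.0 and 2.1 in the Cre-positive libraries (log2 fold change -4.30 ± 0.79 (SE), adjusted p = 0.00347). Cyp2j13 (chr4:96027534-96077546) held 61.2, 62.1, 64.9 and 35.2 normalized counts in the Cre-negative libraries and 3.1, 5.0 and 9.3 in the Cre-positive libraries (log2 fold change -3.13 ± 0.62 (SE), adjusted p = 0.00560). Both genes were lower in every Cre-positive library, and both stayed called with any 1 library left out. Cyp3a16 (chr5:145436309-145469723), known from the liver before and around birth, held 32.7, 3.0, 28.8 and 17.6 normalized counts in the Cre-negative libraries and 0, 1.0 and 1.0 in the Cre-positive libraries (log2 fold change -3.38 ± 0.99 (SE), adjusted p = 0.0382). Cyp2d12 (chr15:82555108-82559413) held 6.7, 59.1, 18.9 and 17.6 normalized counts in the Cre-negative libraries and 0, 1.0 and 4.2 in the Cre-positive libraries (log2 fold change -3.22 ± 0.96 (SE), adjusted p = 0.0420). The groups did not overlap in either gene, but the Cyp3a16 call was lost without library 45, 46, 75, 76, 77 or 80 (adjusted p from 0.0674 to 0.107), with no filter (0.0753) and with limma-voom (0.155). The Cyp2d12 call was lost without library 45, 48, 75, 76 or 77 (adjusted p from 0.0751 to 0.120) and with the Y-linked covariate (log2 fold change -2.52, adjusted p = 0.155). It was also lost with edgeR (adjusted p = 0.0698), with an added count of 5 (0.0521), with no filter (0.0801) and with limma-voom (0.145).

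Family 4 oxidises fatty acids and eicosanoids at the end of the chain, and 3 of its 13 tested members fell while 0 rose. Over all genes tested 9.11% were called lower and 4.66% higher. Cyp4a12b passed the filter through its Cre-negative libraries alone and could only come out lower, so this count supports no direction. Cyp4a12b (chr4:115411624-115439034), an arachidonic acid hydroxylase known from the male kidney, held 8.4, 21.7, 21.6 and 8.3 normalized counts in the Cre-negative libraries and 0 reads in all 3 Cre-positive ones. Against 3 reads over the Cre-positive group it was at least 14.6-fold higher in the Cre-negative group (log2 fold change -3.86 ± 0.91 (SE), adjusted p = 0.0145). The call was lost with limma-voom (adjusted p = 0.0512). Its near copy Cyp4a12a shares 49.4% of the 50-base windows of its longest coding transcript, so reads could be split between them. The 2 genes together held 13.4, 25.6, 32.4 and 20.7 normalized counts without Cre and 0 with Cre. Cyp4f14 (chr17:32905071-32917342), a liver leukotriene hydroxylase, held 41.1, 53.2, 14.4 and 127 normalized counts in the Cre-negative libraries and 12.5, 4.0 and 3.1 in the Cre-positive libraries (log2 fold change -2.82 ± 0.80 (SE), adjusted p = 0.0334), and Cyp4f18 (chr8:71988482-72009626), a leukotriene hydroxylase of myeloid cells, held 65.4, 51.2, 27.0 and 41.4 normalized counts in the Cre-negative libraries and 9.4, 8.0 and 7.3 in the Cre-positive libraries (log2 fold change -2.29 ± 0.59 (SE), adjusted p = 0.0231). Both were lower in every Cre-positive library. The Cyp4f14 call was lost without library 46, 48, 76, 77 or 80 (adjusted p from 0.0775 to 0.111) and the Cyp4f18 call without library 46, 48 or 77 (adjusted p from 0.0554 to 0.0845). Both calls were also lost with the Y-linked covariate (adjusted p = 0.105 for Cyp4f14 and 0.0741 for Cyp4f18) and with limma-voom (0.130 and 0.0663). The myeloid genes Adgre1 (138 to 402 without Cre and 28.0 to 56.4 with Cre, log2 fold change -2.91, adjusted p = 8.19e-04) and Itgam (72.9 to 99.3 without Cre and 14.5 to 19.0 with Cre, log2 fold change -2.30, adjusted p = 0.00531) fell with Cyp4f18 while Lyz2 rose (log2 fold change 0.66, adjusted p = 0.0328). The Lyz2 call was lost without library 46, 48, 77 or 80 (adjusted p up to 0.129) and with the Y-linked covariate (0.101). Csf1r, Itgax, C1qa, C1qb and Mertk of the macrophage and dendritic list were not called (log2 fold change from -1.17 to -0.06). The part of myeloid cells in the value of Cyp4f18 was not tested. Cyp4f18 also overlaps exons of Zfp961 on the opposite strand, and the strand setting of the counts is not given. Cyp4f16, the family's most abundant member, held 282, 349.7, 367.5 and 361 normalized counts in the Cre-negative libraries and 207, 222 and 212 in the Cre-positive libraries, without overlap and without a call (log2 fold change -0.66 ± 0.22 (SE), adjusted p = 0.0686). Scaling to library totals called it (-0.86, adjusted p = 0.0246), as did DESeq2 (adjusted p = 0.0264).

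**Figure D4:**
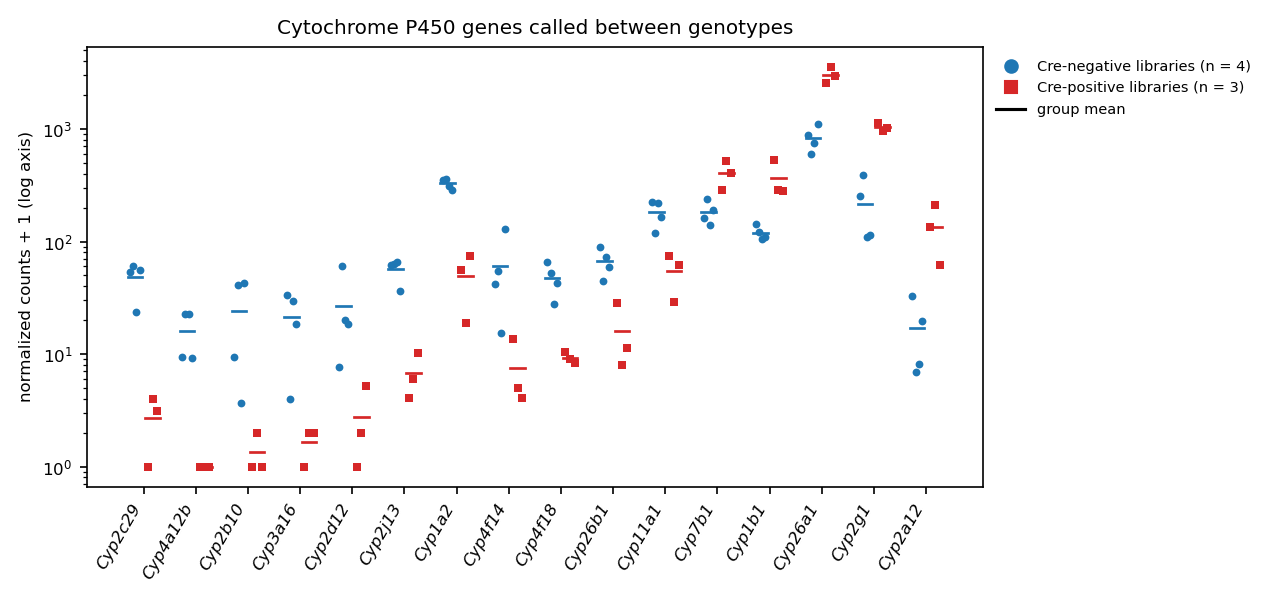
Normalized counts + 1 (log axis) of the 16 called P450 genes in each library, ordered by fold change, with circles for the 4 Cre-negative and squares for the 3 Cre-positive libraries and a line at the group mean. The groups do not overlap in any of the 16 genes, and Cyp4a12b has no read in the 3 Cre-positive libraries.

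Summed counts of each subfamily took in all its members, tested or not, and no test was made on the sums. The 15 Cyp2c genes summed to 119 to 278 normalized counts without Cre and 18.0 to 50.8 with Cre, and all 9 tested members had a fold change below 0 (-4.30 to -0.86, with 1 called). The 9 Cyp2d genes summed to 67.1 to 174 and 30.3 to 51.0 with fold changes of -3.22 to -0.80 in 4 tested members. The 8 Cyp4a genes summed to 31.7 to 49.5 and 3.1 to 14, and the 9 Cyp4f genes to 649 to 924 and 479 to 541. These 4 sums did not overlap between the groups. Of all genes tested, taken singly, 14.5% were lower in the Cre-positive libraries without overlap. Members that passed the filter through their Cre-negative libraries alone had to come out lower, so the fold changes below 0 support no direction. The Cyp3a sums overlapped (229 to 457 and 33.2 to 251), with 151 counts of Cyp3a25, a gene of liver and gut, in Cre-positive 76 alone against 2.1 in each of the other 2. The 8 Cyp2j genes also overlapped (176 to 344 and 217 to 378), since Cyp2j6 and Cyp2j9 had fold changes of 0.62 and 0.67 beside the fall of Cyp2j13. The Cyp2a sum was set by Cyp2a5.

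**Figure D5:**
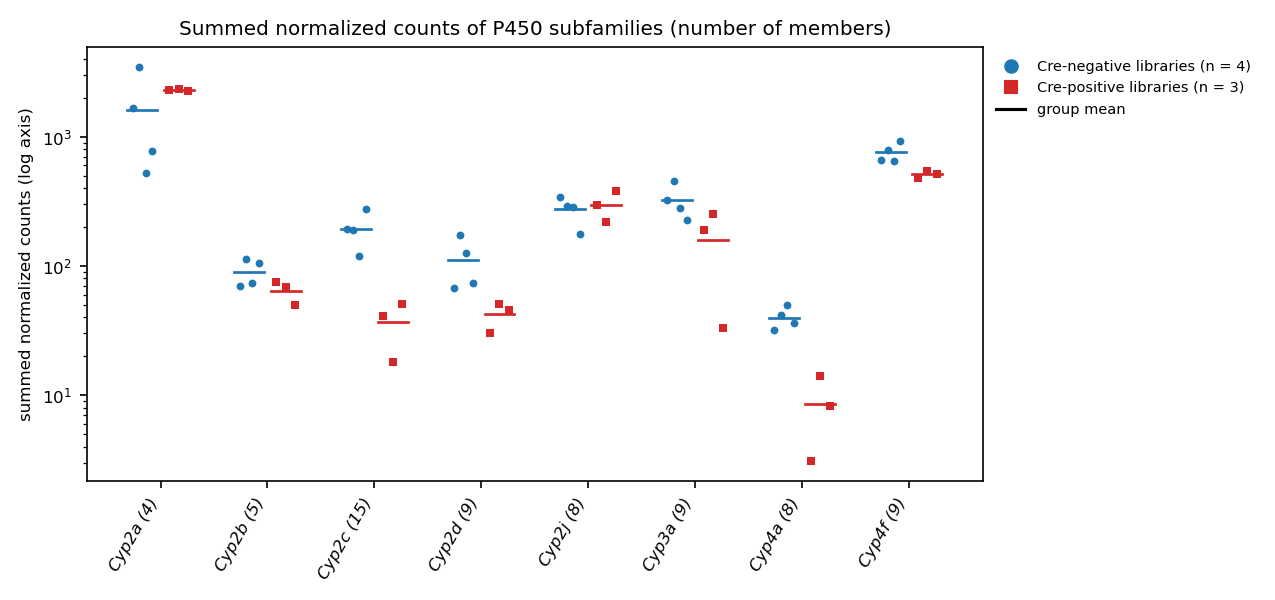
Summed normalized counts (log axis) of each P450 subfamily with at least 4 members, with the number of members in brackets, circles for the 4 Cre-negative and squares for the 3 Cre-positive libraries and a line at the group mean. Cyp2c, Cyp2d, Cyp4a and Cyp4f are lower in every Cre-positive library, and the other subfamilies overlap.

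Other genes of the liver moved with these families in part. Of 7 tested hepatocyte markers 2 fell and 0 rose, the urea cycle gene Cps1 (log2 fold change -2.87, adjusted p = 0.00506) and the tyrosine aminotransferase Tat (log2 fold change -3.12, adjusted p = 0.0246, up to 0.0764 without library 46, 75, 76, 77 or 80 and 0.0533 with the Y-linked covariate), and the list summed to 1583 to 2161 without Cre and 611 to 2768 with Cre. Albumin itself was read thinly in both groups (18.9 to 35.2 and 1.0 to 24.0). Aire and Cd80 fell with these families too, and the part of each in the P450 values was not tested.

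Of the listed proteins that feed electrons to P450 enzymes or bind them, 1 of 11 tested rose and 0 fell. Pgrmc1, a haem-binding membrane protein that binds P450 enzymes, held 4176, 4240.4, 4078 and 3323 normalized counts in the Cre-negative libraries and 7309, 8372 and 10271 in the Cre-positive libraries (log2 fold change 1.12 ± 0.16 (SE), adjusted p = 7.90e-04), with all Cre-positive libraries above all Cre-negative ones. Por, the reductase that serves every P450 of the endoplasmic reticulum, stood at 264 to 419 and 125 to 236 and was not called (log2 fold change -0.84, adjusted p = 0.0740). In haem synthesis and breakdown, Alas1, the rate-limiting enzyme, fell (1031 to 1906 without Cre and 674 to 785 with Cre, log2 fold change -0.89, adjusted p = 0.0149, 0.0551 with the Y-linked covariate), and the other 12 tested genes had no call. Of 28 tested regulators 3 fell and 1 rose, close to the shares over all genes tested (9.11% lower and 4.66% higher). The bile acid receptor Nr1h4 fell (17.7 to 112 without Cre and 0 to 6.0 with Cre, log2 fold change -4.15, adjusted p = 0.00769) and the liver and gut factor Foxa1 fell (290.5 to 641 without Cre and 61.2 to 201 with Cre, log2 fold change -2.02, adjusted p = 0.00441), with no overlap in either, and Arnt and Tiparp are given above. Among 13 arachidonic acid oxygenases and epoxide hydrolases, Alox15 (1002 to 1507 without Cre and 555 to 749 with Cre, log2 fold change -0.89, adjusted p = 0.00985) and the thromboxane synthase Tbxas1, itself a P450 enzyme outside the naming rule (36.4 to 62.2 without Cre and 4.2 to 11.5 with Cre, log2 fold change -2.52, adjusted p = 0.0145), fell. The Tbxas1 call was lost without Cre-negative 46 (adjusted p = 0.0517).

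Beside the 67 tested members, 34 had means of 0.143 to 4.94 normalized counts and a highest single value of 23.5, and no member was without a read. In 6 of the 34 no Cre-positive library had a read. Against 3 reads over the Cre-positive group, Cyp2c69 was at least 8.41-fold, Cyp4a12a at least 7.81-fold, Cyp3a59 at least 6.88-fold and Cyp2b23 at least 6.10-fold higher in the Cre-negative group, and Cyp2d11 and Cyp3a41a were at or under that floor in both. These bounds rest on few reads: without Cre-negative 46 that of Cyp2c69 was 3.60, without Cre-negative 48 that of Cyp2b23 was 3.02, and without Cre-negative 75 that of Cyp3a59 was 3.92. Cyp2b23 had no read in Cre-negative 46 and 75, and Cyp2c69 none in Cre-negative 75. Leaving out a Cre-positive library raises the floor, and the lowest bounds were then 5.54 for Cyp2c69, 5.14 for Cyp4a12a, 4.53 for Cyp3a59, 4.02 for Cyp2b23 and 9.60 for Cyp4a12b, each without Cre-positive 76. Cyp3a44 and Cyp2c55, tested but not called, also had no read in a Cre-positive library. Their bounds were 23.0-fold and 9.09-fold, and 15.1 and 5.99 without Cre-positive 76. Cyp3a44 had no read in Cre-negative 77, and the bound of Cyp2c55 was 4.25 without Cre-negative 46. Reads could be split between near copies in 31 members, which share over 20% of the 50-base windows of their longest coding transcript with another gene. Among them were Cyp2a5 (40.8%, mostly with Cyp2a4), Cyp2a12 (27.5%, with Cyp2a22), Cyp3a25 (26.8%, mostly with Cyp3a59), Cyp4f16 (26.5%), Cyp2c69 (54.8%) and the pair Cyp4a12a and Cyp4a12b. Exons of 19 members overlap another gene, among them Cyp2c29, Cyp11a1, Cyp51 and Cyp2d12, so part of their counts may belong to the neighbour.

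The authors' deposited table gives no adjusted p for 45 of the 101 members and calls 26 of the others, 4 higher and 22 lower (21.8% of all genes with an adjusted p there are called). Of the 16 members called here, 15 are called in the authors' deposited table and in the same direction, and Cyp1b1 has no adjusted p there.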

How the data were processed

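RNA of EPCAM+ mTECs was measured in 4 Cre-negative and 3 Cre-positive libraries. Per the submitters' processing notes, STAR 2.7.9a, DESeq2 and build GRCm39 were used. The read counter, strand setting and read length were not given in the sources used here. The deposited table holds, per the file headers, normalized counts, a signal for which the authors scaled gene counts by 1 size factor per library. The deposited columns also hold variance-stabilized log2 values, the authors' fold ratio and log2 fold change, and their p-value with its adjusted form. The GC percent of genes in the deposited table was not used. Of 52489 genes shared with GENCODE M21 (GRCm38), 95.2% had equal coordinates in the deposited table, as had 82 of 101 members, so positions are given as deposited, on GRCm38. All 3047 rows that lacked a symbol took one from a gene ID table.

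Each normalized count was divided by the worth of 1 read in its library, found through the unrounded mean. All values were whole within 0.0501 normalized counts (100%), and 100% of the deposited means were rebuilt. Recovered totals were 12599078, 9815958, 11755458 and 9816913 (Cre-negative 46, 48, 75, 77) and 11383465, 11394700 and 11623062 (Cre-positive 45, 76, 80). Intervals and floors from reads cover counting error only.

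The filter was a mean of 5 normalized counts or more. The test was limma on log2(normalized count + 1), with an intensity trend and genotype as the sole term, and Benjamini-Hochberg adjustment over all 22878 genes tested, two-sided at 0.05. The fit was tested on simulated data. Alternatives were pseudocounts of 0.5 and 5, no filter, a mean of at least 20, library total scaling, edgeR, DESeq2 and limma-voom on recovered reads, a term for the title number range, a Y-linked covariate and leaving out each library. Named members were every called one, the 6 with the most normalized counts, and a list of 11 genes of known roles, and for each cluster or subfamily its range. Partner and pathway genes were named up to 4 a list by adjusted p. The members and all lists were chosen with earlier results of these data known. Cyp rows of other biotypes (19) or of no biotype (9) were left out. The fits ran in R 4.3.3 with DESeq2 1.42.0, edgeR 4.0.16 and limma 3.58.1. Python 3.11.15 with matplotlib 3.10.9, scipy 1.17.1, pandas 2.3.3 and numpy 2.4.6 did the rest.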

Additional observations from a re-analysis of the deposited data

Results flagged for a closer look

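Among the 25 named P450 genes, 3 had a Cre-negative library far from the other 3 of its group, with a gap, as a share of the group's range, above Dixon's critical value for 4 samples, which chance gives in about 1 in 20 groups. Cyp27b1 was lowest in Cre-negative 48 (8.9 normalized counts, gap 0.852 of the range). Cyp24a1 was highest in Cre-negative 48 (100.5, gap 0.949), and without that library its fold change was 0.22 in place of -0.28. Cyp2j13 was lowest in Cre-negative 77 (35.2, gap 0.875), still above every Cre-positive library.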

How the results depend on the processing

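Against 16 P450 calls, limma-voom gave 9 (4 lower), DESeq2 gave 17 lower, and a filter at a mean of 20 gave 7 lower among the 35 members it tested. With 1 library left out, 10 to 15 members were called in all, 3 to 7 higher and 6 to 10 lower, the fewest higher without Cre-positive 76 (3) and the fewest lower without Cre-negative 46 or 77 (6 each), and without Cre-positive 76 there were 7 lower. Over all genes, 3150 calls became 1909 with the Y-linked covariate and 1969 to 2702 with 1 library left out, 1969 without Cre-negative 46. The remaining 73 counts were within 1.5 times the main count. The fold change of Cyp24a1 reversed with edgeR (0.075), DESeq2 (0.063), the Y-linked covariate (0.39) and without Cre-negative 48 (0.22) or Cre-positive 45 (0.40), and ran from -1.21 to 0.40 with 1 library left out. That of Cyp1a1 reversed with the Y-linked covariate (-0.0088) and without Cre-negative 75, and ran from -0.098 to 1.11. Neither gene was called in any of these fits, and the cause was not tested. Of the other values of named members, 352 kept direction and side of the threshold, 51 lost a call and 9 gained one. No paired analysis was possible because the numbers in the titles are not shared between the groups. Members under 50 normalized counts rest on few reads, and their fold changes depend most on the added count.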
